A study of Rattus norvegicus with 6 samples.

Results

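Fos, Jun, Atf3, Egr1 and Stat3 are transcription factors whose genes respond to injury of nervous tissue. They were taken as a group of 5 genes by their Ensembl rat gene IDs, and all 5 were among the 22526 genes of the deposited table. The pairing of these 5 IDs with symbols comes from the list that defined the group, because the table carries no gene names. RNA of the injured spinal cord was sequenced in bulk, with a stranded mRNA protocol, in 6 adult female rats of the Sprague-Dawley strain 2 weeks after the injury. In 3 of them the lesion held a scaffold of decellularized optic nerve, from which the cells had been removed (DON). The remaining 3 had this type of scaffold combined with Apt19S (A-DON). Apt19S is an aptamer, a short nucleic acid selected to fold and bind a target. Every rat was thus injured and implanted, and no uninjured or unimplanted cord was part of the comparison, so DON is the only reference. The position and length of the piece of cord taken, and whether it included the scaffold, are not stated in the labels.

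These factors sit at the end of signalling routes that injury switches on. Fos and Egr1 are immediate early genes, transcribed quickly after calcium or MAP kinase signals through serum response factor and CREB. Jun is the main partner of Fos in the dimer AP-1 and is phosphorylated by the stress kinase JNK, and Atf3 is a related leucine zipper protein that marks axotomized neurons and also appears in stressed glia and macrophages. Stat3 is a latent factor that is activated by tyrosine phosphorylation downstream of the IL-6 family of cytokines, and in the injured cord it is known for its part in astrocyte reactivity and scar borders. RNA levels do not report phosphorylation, so activity of Jun and Stat3 was not measured here.

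Libraries held 24961512 to 31189687 reads assigned to genes, and the members had between 107 and 7731 reads in a library. These are whole counts recovered from the deposited values and taken as reads, since how they were counted is not given. The lowest, 107 reads, has an exact 95% Poisson interval of 87.7 to 129, which covers counting error only, less than the spread between rats of a group. A-DON replicate 2 stood apart from its group: across all listed genes its Pearson r with A-DON replicates 1 and 3 was 0.957 and 0.961, against 0.985 between those 2, and its r with the DON libraries was 0.953 to 0.963. These coefficients are across genes, which are not independent replicates. Markers of spinal cord cell types could not be looked up without gene names, so the labelled tissue was not checked and cell content was not tested as a part of any difference.

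All 5 genes were lower in A-DON than in DON cords. The estimated falls were 7.22-fold for Atf3, 4.44-fold for Fos, 4.41-fold for Egr1, 2.27-fold for Stat3 and 2.01-fold for Jun. In each gene the 3 A-DON values lay below the 3 DON values, an arrangement that 27.9% of the 19515 tested genes showed. All 5 members passed the test in this direction (limma on log2 values, Benjamini-Hochberg adjusted p under 0.05 over all tested genes), as did 16.6% of tested genes, and 35.5% of tested genes passed in either direction. The median log2 fold change was -2.14 over the 5 members and -0.02 over all tested genes. The members were chosen with earlier results of these data known, so these shares and medians are descriptive and do not test the group. The calls depended on single rats: 5 members passed without A-DON replicate 2, 4 without DON replicate 2, 2 without DON replicate 1, and 0 without DON replicate 3, A-DON replicate 1 or A-DON replicate 3. The share of all tested genes called lower in those fits was 24.9%, 5.66%, 6.65%, 1.13%, 0.0154% and 0.00512%. In the 3 fits in which 0 members passed, at most 1.13% of the tested genes were thus called lower. All 5 members kept a negative fold change in each of the 6 fits, which was certain because their groups did not overlap. In bulk tissue, fewer cells of a type and less RNA per cell cannot be told apart.

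**Figure D1:**
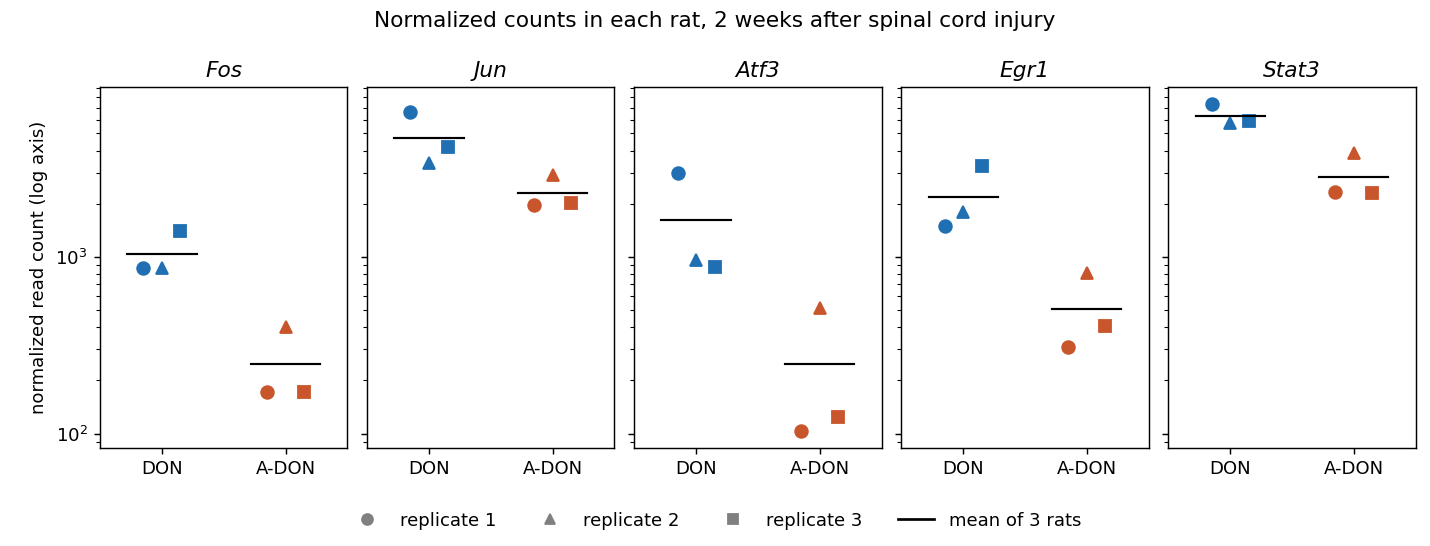
Normalized read counts (log axis, not divided by transcript length) of Fos, Jun, Atf3, Egr1 and Stat3 in each rat, with symbols for the replicate number and a bar at the mean of 3 rats. In every panel the highest A-DON symbol is replicate 2 and lies below the lowest DON symbol.

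Fos (ENSRNOG00000008015), the AP-1 subunit whose transcription is turned on within minutes of a stimulus, had normalized counts of 869.3, 869.5 and 1398 in DON replicates 1 to 3. In A-DON replicates 1 to 3 the counts were 171.4, 403.5 and 173.0. DON replicate 3 was high in its group, A-DON replicate 2 was high in its own, and the groups did not overlap, with the lowest DON value 2.15 times the highest A-DON value. The means were 1046 ± 305 in DON and 249 ± 134 in A-DON (SD, n = 3 each). Fos fell by 2.15 on the log2 scale, with a standard error of 0.395, a 95% confidence interval of -3.12 to -1.18 and a limma adjusted p of 0.0157. Without DON replicate 3, A-DON replicate 1 or A-DON replicate 3 the limma adjusted p was 0.0571, 0.0675 and 0.0706, at falls of 3.79, 3.84 and 3.86-fold.

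Jun (ENSRNOG00000026293), the partner that binds DNA with Fos and can also pair with itself, had 6613, 3399 and 4192 normalized counts in DON replicates 1 to 3 and 1958, 2895 and 2033 in A-DON replicates 1 to 3. DON replicate 1 was high, and the gap between the groups was narrow, since DON replicate 2 was 1.17 times A-DON replicate 2. The means were 4735 ± 1674 in DON and 2295 ± 520 in A-DON (SD, n = 3 each). Jun fell by 1.01 on the log2 scale, with a standard error of 0.287, a 95% confidence interval of -1.71 to -0.31 and a limma adjusted p of 0.0401. This was the highest adjusted p of the 5. With libraries scaled to equal totals its limma adjusted p was 0.0528, without trend and robust moderation 0.0563, and without DON replicate 1, DON replicate 3, A-DON replicate 1 or A-DON replicate 3 it was 0.0687, 0.0938, 0.134 and 0.133. The falls were 1.89-fold with equal totals, 2.01-fold without trend and robust moderation, and 1.67, 2.10, 1.88 and 1.91-fold in those 4 fits without a library.

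Atf3 (ENSRNOG00000003745), a stress-induced leucine zipper factor that pairs with Jun and is a usual marker of injured neurons, had 3003, 957.2 and 883.0 normalized counts in DON replicates 1 to 3. In A-DON replicates 1 to 3 it had 103.0, 515.7 and 124.6. Its values were spread more than those of the other members in each group: the highest DON value was 3.40 times the lowest, and the highest A-DON value 5.01 times the lowest. The groups still did not overlap, with the lowest DON value 1.71 times the highest A-DON value. The means were 1614 ± 1203 in DON and 248 ± 232 in A-DON (SD, n = 3 each). Atf3 fell by 2.85 on the log2 scale, with a standard error of 0.76 (limma adjusted p of 0.0345). The 95% confidence interval of the fall ran from 2.00-fold to 26.2-fold, so its size is poorly fixed. It was 11.9-fold without A-DON replicate 2 (limma adjusted p of 0.00631) and 4.87-fold without DON replicate 1 (0.0808), and the call was also lost without DON replicate 2 or 3, at falls of 8.62 and 8.98-fold (0.0617 and 0.0735), or A-DON replicate 1 or 3, at 5.36 and 5.89-fold (0.117 and 0.119).

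Egr1 (ENSRNOG00000019422), a zinc finger factor induced along with Fos, had 1504, 1789 and 3270 normalized counts in DON replicates 1 to 3 and 310.0, 809.1 and 406.4 in A-DON replicates 1 to 3. As with Fos, DON replicate 3 and A-DON replicate 2 were the high libraries of their groups, and the lowest DON value was 1.86 times the highest A-DON value. The means were 2188 ± 948 in DON and 509 ± 265 in A-DON (SD, n = 3 each). Egr1 fell by 2.14 on the log2 scale, with a standard error of 0.443, a 95% confidence interval of -3.22 to -1.06 and a limma adjusted p of 0.0199. Without DON replicate 3, A-DON replicate 1 or A-DON replicate 3 the limma adjusted p was 0.0607, 0.0761 and 0.0826, at falls of 3.51, 3.60 and 4.11-fold.

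The promoter of Egr1 is shown because serum response factor and CREB, the regulators known to act on Fos and Egr1, bind short motifs that can be read in it. The RefSeq promoter table (build GRCr8, whereas the submitters' processing notes name rn6 for the reads) held entries for Egr1 and Stat3, 2 of the 5 members. The 250 bases before the annotated start of Egr1 are chr18:26736828-26737077 on the plus strand, given 5′ to 3′ with motif matches in capitals.
Egr1: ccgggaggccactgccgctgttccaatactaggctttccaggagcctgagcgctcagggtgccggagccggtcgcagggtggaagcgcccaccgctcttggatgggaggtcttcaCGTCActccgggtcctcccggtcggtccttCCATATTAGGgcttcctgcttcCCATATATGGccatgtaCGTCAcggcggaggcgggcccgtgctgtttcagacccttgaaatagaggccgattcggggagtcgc
The capitals mark 2 CArG boxes, the element that serum response factor binds, whose first bases lie 105 and 83 bases before the start, and 2 copies of the cAMP response element core TGACG on the minus strand, whose first bases lie 135 and 66 bases before it. Of 27457 promoter windows of 250 bases, 1.5% held a CArG box and 7 windows (0.0255%) held 2 or more, while 19.0% held TGACG on either strand and 4.21% held it 2 or more times. The complete element TGACGTCA (1.70% of windows), the AP-1 motif TGANTCA with C or G at N (3.98%), the Egr1 motif GCGNGGGCG with T or G at N (2.94%) and the STAT motif TTCNNNGAA (7.52%) were not found in this window on either strand. The CArG matches did not overlap the other matches, and TGACG is contained in the complete element. In the 250 bases before the start of Stat3, chr10:86363360-86363609 on the minus strand, none of the 6 motifs was found. Matches describe letters in these windows and no binding was measured.

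Stat3 (ENSRNOG00000019742), the cytokine-activated factor, had 7369, 5702 and 5875 normalized counts in DON replicates 1 to 3 and 2337, 3899 and 2308 in A-DON replicates 1 to 3. It varied least of the 5 members among DON rats, where the highest value was 1.29 times the lowest. A-DON replicates 1 and 3 differed by a factor of 1.01. The lowest DON value was 1.46 times the value of A-DON replicate 2. The means were 6316 ± 916 in DON and 2848 ± 910 in A-DON (SD, n = 3 each). Stat3 fell by 1.18 on the log2 scale, with a standard error of 0.241, a 95% confidence interval of -1.77 to -0.6 and a limma adjusted p of 0.0191. Without DON replicate 1, DON replicate 3, A-DON replicate 1 or A-DON replicate 3 the limma adjusted p was 0.0504, 0.0602, 0.0788 and 0.0810, at falls of 2.10, 2.35, 2.09 and 2.08-fold.

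**Figure D2:**
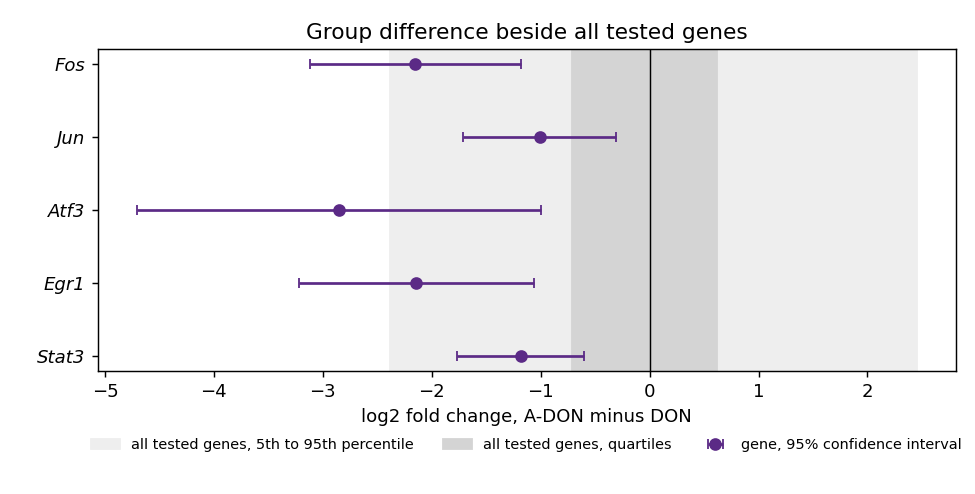
Log2 fold change of each gene (A-DON minus DON, points) with its 95% confidence interval, over bands for the quartiles (-0.71 to 0.62) and the 5th to 95th percentiles (-2.38 to 2.45) of all 19515 tested genes. The estimate for Atf3, -2.85, lies outside the wider band, and those of Jun and Stat3 lie just beyond the quartiles.

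The falls of the members took different places among all tested genes. For Atf3, 2.53% of the tested genes had an equal or lower log2 fold change, against 6.83% for Fos and 6.90% for Egr1. The falls of Stat3 and Jun were more common in size, with 16.7% and 19.1% of tested genes at or below them. The exact two-sided permutation p for each single member was 0.1, the smallest that 3 rats against 3 allow.

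Rats of 1 group also differed, and the members did not all share the DON rat in which they were highest. Jun, Atf3 and Stat3 were highest in DON replicate 1, at 0.54, 1.14 and 0.23 above their DON means on the log2 scale. Their lowest DON rat differed, replicate 2 for Jun and Stat3 and replicate 3 for Atf3. Fos and Egr1 were highest in DON replicate 3, at 0.46 and 0.66, and stood at -0.23 and -0.46 in DON replicate 1, where Egr1 was lowest and Fos was level with DON replicate 2. The rat with the most Atf3 RNA was therefore not the rat with the most Fos and Egr1 RNA. The DON SD of Atf3 on the log2 scale was 0.99, larger than that of 96.8% of the 5327 tested genes whose mean level was within 1 log2 unit of it. For Jun, Fos and Egr1 the DON SDs were 0.49, 0.40 and 0.59, above those of 87.0%, 75.9% and 89.5% of genes of like level. Stat3 had 0.20, above 59.3% of them. In A-DON the SDs of Fos, Jun, Atf3, Egr1 and Stat3 were 0.71, 0.31, 1.26, 0.71 and 0.43. These were above those of 89.1%, 74.1%, 95.6%, 91.7% and 86.2% of genes of like level.

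Within A-DON, replicate 2 was the highest library for all 5 members. On the linear scale, with the DON mean at 0 and the mean of A-DON replicates 1 and 3 at 1, A-DON replicate 2 lay at 0.735 for Fos, 0.672 for Jun, 0.732 for Atf3, 0.753 for Egr1 and 0.605 for Stat3. On the log2 scale the positions were 0.521, 0.549, 0.392, 0.532 and 0.479. For comparison, 2978 tested genes were at least 2-fold lower in A-DON replicates 1 and 3 than in DON, without overlap and at a mean level of 50 normalized counts or more, the 5 members among them. Over these genes the position had a median of 0.56 (quartiles 0.43 and 0.67) on the linear scale and 0.35 (quartiles 0.22 and 0.50) on the log2 scale. Each member thus lay above the median on these scales, that is, nearer to the other A-DON rats than the median gene. Fos, Atf3 and Egr1 lay above the upper quartile on the linear scale, as did Fos, Jun and Egr1 on the log2 scale. On the log2 scale Atf3 and Stat3 were still nearer to the DON mean than to A-DON replicates 1 and 3. The comparison genes were selected without a condition on A-DON replicate 2, whereas in each member that replicate lay below all DON values. They are therefore not a like reference for the members. No test was made of these positions.

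**Figure D3:**
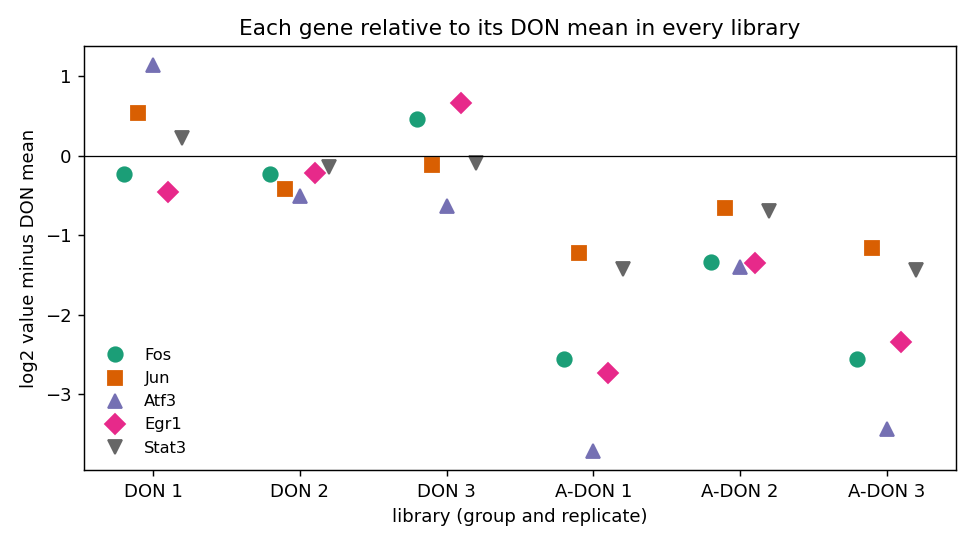
Log2 value of each gene minus its DON mean in every library (log2 units, 1 symbol shape per gene). In DON replicate 1 Atf3 stands at 1.14 while Fos and Egr1 are below 0, and in A-DON replicate 2 all 5 genes are higher than in A-DON replicates 1 and 3.

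Ratios between members within a library were compared to set their falls side by side. The log2 ratio of Fos to Egr1 was -0.79, -1.04 and -1.23 in DON replicates 1 to 3 and -0.85, -1.0 and -1.23 in A-DON replicates 1 to 3. It spanned 0.44 over the 6 rats, although each gene fell by more than 2 on the same scale, and its means were -1.02 ± 0.22 in DON and -1.03 ± 0.19 in A-DON (SD, n = 3 each; exact two-sided permutation p = 0.9). Jun and Stat3 also kept near each other, with log2 ratios of -0.46 ± 0.30 in DON and -0.29 ± 0.13 in A-DON (SD, n = 3 each; exact two-sided permutation p = 0.5). A missed threshold with 3 rats a group does not show that the members of a pair changed alike.

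With all 6 rats the ratio of Jun to Atf3 had the largest difference between the groups among the 10 pairs, whereas without DON replicate 1 the ratio of Jun to Egr1 did, at 1.63. The log2 ratio of Jun to Atf3 was 1.14, 1.83 and 2.25 in DON replicates 1 to 3 and 4.24, 2.49 and 4.02 in A-DON replicates 1 to 3. The group means differed by 1.84 (2.39 without A-DON replicate 2 and 1.54 without DON replicate 1). Atf3 thus fell further than Jun in these rats, with no overlap of the ratio between the groups. The ratios of Atf3 to Stat3 and of Fos to Stat3 did not overlap between the groups either, with differences of -1.67 and -0.97. How many pairs of other tested genes also lack overlap was not counted, so nothing particular to these members follows from it. For these 3 pairs the exact two-sided permutation p was 0.1, the smallest possible, and 0.33 after Benjamini-Hochberg adjustment over the 10 pairs. No pair could pass a threshold of 0.05 with 3 rats a group, so this test cannot decide whether the falls of 2 members differ. Between Fos and Jun, the subunits of AP-1, the log2 ratio was -2.16 ± 0.69 in DON and -3.30 ± 0.40 in A-DON (SD, n = 3 each), with overlapping groups, an exact two-sided permutation p of 0.2 and an adjusted value of 0.33.

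**Figure D4:**
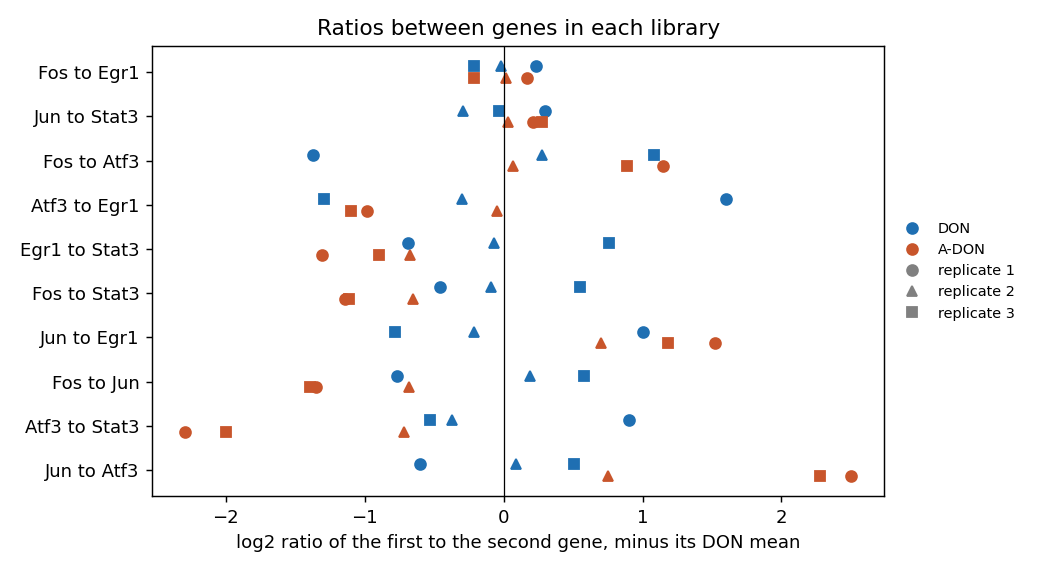
Log2 ratio of the first to the second gene of each of the 10 pairs in every library, minus the DON mean of that ratio (colour for the group, shape for the replicate). Fos to Egr1 stays within a span of 0.44 in all 6 rats, whereas Jun to Atf3 lies higher in every A-DON rat than in any DON rat.

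Likeness between genes was measured as the root mean square difference of mean-centred log2 values over the 6 libraries, among 9757 other tested genes at or above the median level. Egr1 was the fourth nearest gene to Fos and Fos the second nearest to Egr1, at 0.167 log2 units (ranks 4 and 2). Jun and Stat3 differed by 0.205, yet Stat3 was number 166 in likeness to Jun and Jun number 372 in likeness to Stat3. Many genes lay near these 2: 149 within 0.2 of Jun and 345 within 0.2 of Stat3, against 8 for Fos, 3 for Egr1 and 1 for Atf3. The difference was not scaled to the spread of a gene, so these counts and ranks also depend on that spread. Atf3 had no member near it, the closest being Fos at 0.866. The gene most like Fos was ENSRNOG00000009730, at 0.101, with 1218, 1151 and 1904 normalized counts in DON replicates 1 to 3 and 272.4, 639.8 and 247.2 in A-DON replicates 1 to 3. The gene most like Stat3 was ENSRNOG00000036666, at 0.0289, with 2342, 1835 and 1907 normalized counts in DON and 738.4, 1294 and 769.2 in A-DON. The files used here pair no name with either ID.

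**Figure D5:**
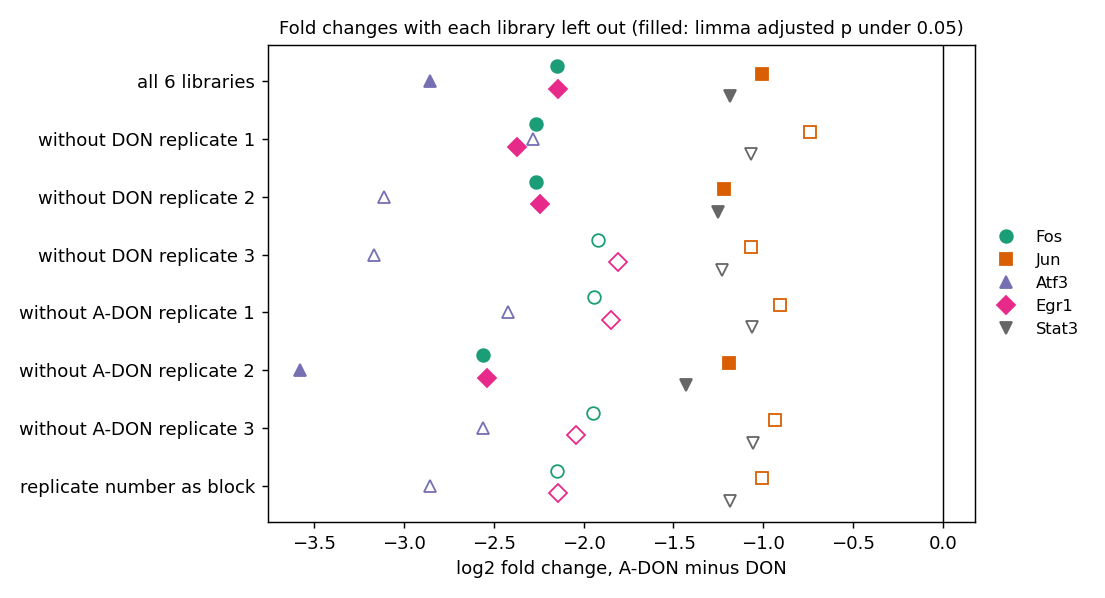
Log2 fold change of each gene (A-DON minus DON) with all 6 libraries, with each library left out, and with the replicate number as a block, where filled symbols have a limma adjusted p under 0.05. All symbols lie below 0, as the lack of overlap between the groups makes certain, and the 5 symbols are all filled with all libraries and without A-DON replicate 2.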

How the data were processed

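The authors deposited 1 table of log2 values (0 to 19.8) for 22526 Ensembl rat IDs in 6 libraries. Build rn6, STAR 2.5.3a, StringTie 1.3.1c and FastQC 0.11.2 appear in the submitters' processing notes without their roles; how reads were counted per gene, with which strand setting and annotation, is not given in the sources used here. With the log2 undone and 1 subtracted, all values under 1000 reads were whole multiples of 1 step per library (tolerance 0.05 reads). A step was taken as 1 read, so the deposited values were treated as log2(reads / size factor + 1). The linear values are called normalized counts. Their logs slightly understate changes of low genes.

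A-DON (n = 3) was compared with DON (n = 3) by limma 3.58.1 in R 4.3.3 (group only, intensity trend, robust moderation) on genes that reached a normalized count of 1 in 3 or more libraries, with Benjamini-Hochberg adjustment over 19515 genes and a threshold of 0.05. The test was checked on simulated counts with the same dispersion for all genes and no outlying library, which is simpler than these data. Alternatives were quantile normalization, equal totals, other filters, plain limma, a pseudocount of 0.1, voom on recovered reads, a block on the replicate number, and dropping each library in turn. The genes named were the 5 members and the nearest gene of the 2 members with the smallest p. Related gene lists and cell type markers fixed for this work could not be matched, because 0 IDs were found among the 47357 genes of the reference table. The members and lists were chosen with earlier results of these data known. Each rat gave 1 library.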

Additional observations from a re-analysis of the deposited data

How the results depend on the processing

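The log2 fold changes of all 5 members stayed negative under the 14 alternatives, which gave a value for each member. Other filters, plain limma and the block leave the estimates unchanged. Dropping a library could not reverse a sign, because no member overlapped between the groups. Under these alternatives the negative sign was therefore certain. Under no filter, a minimum mean of 5, quantile normalization, a pseudocount of 0.1 and voom all 5 also kept their calls (limma). Jun lost its call with equal totals (-0.92) and without trend and robust moderation (-1.01). With single libraries left out, the log2 fold change ranged from -2.56 to -1.92 for Fos, -1.22 to -0.74 for Jun, -3.58 to -2.28 for Atf3, -2.54 to -1.81 for Egr1 and -1.43 to -1.06 for Stat3. The count of all genes past the threshold ranged from 12 (without A-DON replicate 3; 6851 at an unadjusted p under 0.05) to 9286 (without A-DON replicate 2), against 6930; fewer libraries also leave fewer residual degrees of freedom. With equal totals 4360 genes were higher and 2422 lower, against 3698 and 3232.

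A block on the replicate number left 0 genes past the threshold (limma; 7601 at an unadjusted p under 0.05), and the fold changes of Fos, Jun, Atf3, Egr1 and Stat3 were -2.15, -1.01, -2.85, -2.14 and -1.18 (limma adjusted p 0.0681, 0.111, 0.0906, 0.0679 and 0.0720). The labels repeat the replicate numbers in both groups and do not state a pairing. Deviations of same-numbered rats from their group means correlated at -0.175, -0.24 and -0.0826 across genes, and no rat correlated best with its own number. Deviations from a mean of 3 rats depend on each other, so these values cannot decide whether the numbers pair the rats. The related gene lists gave no value under the block or any other setting, for want of gene names.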
